A study of Mus musculus with 4 samples.

Results

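The Notch genes of mouse embryonic stem (ES) cells are described here with and without Prep1, a TALE-class homeodomain transcription factor that binds DNA as a dimer with Pbx proteins. The set was chosen by name, with earlier results of these data known. It holds 10 of the 22718 genes in the deposited expression tables, namely the receptors *Notch1*, *Notch2* and *Notch3*, the ligands *Dll1*, *Dll3*, *Jag1* and *Jag2*, the transcription factor *Rbpj* and the target genes *Hes1* and *Hey1*. RNA-seq was done on 1 polyA+ library of wild type (WT) ES cells and 1 library labelled *Prep1*-/- (KO below, line KO2). Both are C57Bl6 lines that the authors derived and grew with leukemia inhibitory factor, which keeps ES cells undifferentiated. Each genotype is therefore 1 cell line and 1 library, and a difference between genotypes cannot be told apart from a difference between lines. Prep1 ChIP-seq, which maps the DNA bound by the protein, gave 1 peak list. Its strain label is C57BL/6, whereas its protocol names WT R1 ES cells, so the bound sites and the RNA may come from different lines.

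In Notch signaling a ligand on one cell binds a receptor on its neighbor. The receptor is then cut, first by an ADAM metalloprotease and then by gamma-secretase, and its intracellular domain enters the nucleus, joins Rbpj and a Mastermind coactivator and switches on genes such as those of the Hes and Hey families. The pathway keeps neighboring cells in different states, and in ES cells it is known for promoting the choice of a neural fate once self-renewal ends.

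The deposited read counts summed to 29596294 in the WT library and to 25717811 in the KO library. These totals are several times the number of reads per sample stated in the methods, a mismatch that the files do not resolve, and if fewer reads were sequenced than the counts show, every counting interval below is too narrow. *Pknox1*, the gene that encodes Prep1, had 505 reads in WT and 332 in KO, or 7.85 and 5.78 RPKM, the read count scaled to the length of the gene and the size of the library. Its KO/WT ratio was 0.74 (95% interval 0.64 to 0.85), so the KO library kept most of its *Pknox1* RNA signal. The counts do not show which exons those reads cover. As for the protein, the authors report from immunoblots that Prep1 was absent from the cells of this KO line. The 9 ES cell markers that were examined, among them *Pou5f1*, *Nanog* and *Sox2*, lay between 11.7 and 767 RPKM in WT and between 9.35 and 794 in KO. Over the 13218 genes that exceeded 1 RPKM in WT and in KO alike, the median log2 KO/WT ratio was -0.07. Chromosome 8 stood apart with a median of -0.36, and none of the 10 Notch genes lies on it.

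Among the 10 Notch genes, the lowest ratios were those of 2 ligands. *Jag2* and *Dll3* were at 0.52 and 0.57 of their WT level in KO, while the receptors *Notch1* and *Notch3* were at 0.81 and 0.78, and *Notch2*, *Jag1*, *Rbpj* and *Hes1* lay between 0.92 and 1.05. *Dll1*, present at a low level, went the other way with a ratio of 1.53. With the ratio thresholds used in the study, 2 of the 10 genes were lower in KO (WT RPKM above 1 and KO/WT ratio below 0.7), against 13.3% of all 14254 genes with RPKM above 1 in either library. By the opposite threshold (KO RPKM above 1 and ratio above 1.5), 1 of the 10 was higher, against 6.91% of all genes. All 10 had at least 100 reads in the libraries together, and among all genes with as many reads 11.1% were lower and 4.18% higher. A count of 2 and a count of 1 in 10 are near these shares. The median log2 ratio of the 10 genes was -0.21, with a range of ratios from 0.52 to 1.53, and it was -0.31 over the 9 with RPKM above 1 in WT and in KO, the set to compare with the -0.07 of all such genes. The gene left out of the 9 is *Dll1*, which has the highest ratio and a WT level of 0.994 RPKM. The -0.31 is the value of *Notch1*. As the RNA is from whole cultures, fewer cells that express a gene and less RNA per cell cannot be told apart.

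**Figure D1:**
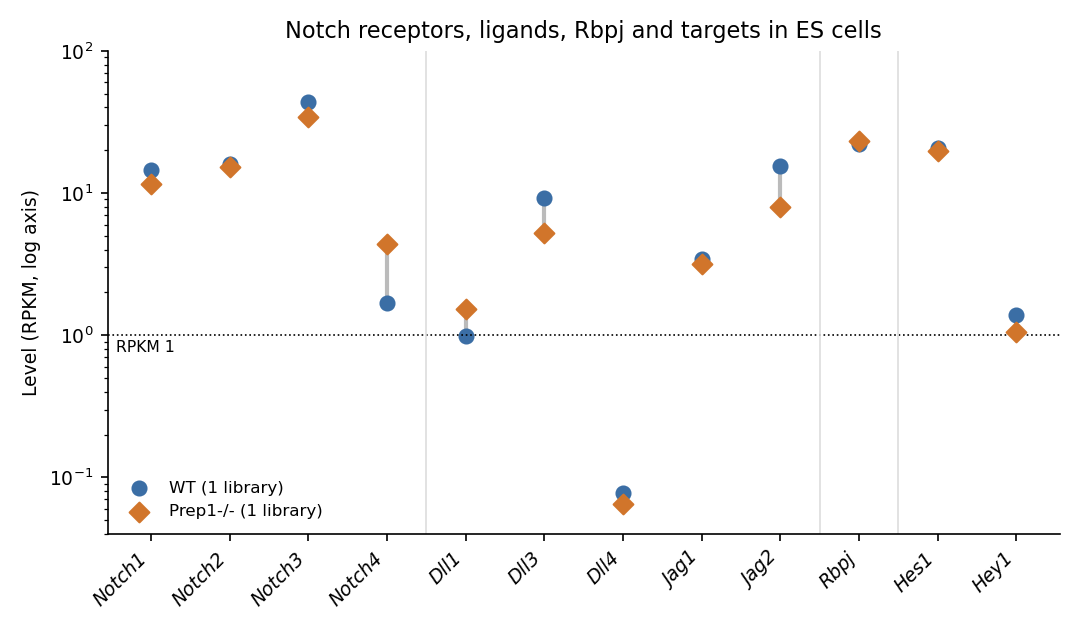
Level in RPKM (log axis) of the 10 Notch genes and of *Notch4* and *Dll4*, with 1 circle for the WT library and 1 diamond for the library labelled *Prep1*-/-, and a gray line joining them. The long gray lines belong to *Notch4*, *Dll1*, *Dll3* and *Jag2*, while the symbols of *Notch2*, *Jag1*, *Rbpj* and *Hes1* nearly coincide.

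With 1 library per genotype no test between genotypes is possible. The 95% intervals given with the ratios are exact (Clopper-Pearson) intervals from the read counts. They cover counting error only, and since reads are not independent molecules and cultures vary, the true error is larger. By these intervals 4 of the 10 ratios lay wholly below 1 (*Notch1*, *Notch3*, *Dll3*, *Jag2*), against 36.3% of all 14254 genes. The ratio of *Dll1* alone lay wholly above 1, against 20.7% of all genes. The intervals of *Dll3* and *Jag2* also lay wholly below 0.7, which 4.64% of all genes reached, whereas that of *Dll1* did not lie wholly above 1.5, as it did for 2.34% of all genes.

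**Figure D2:**
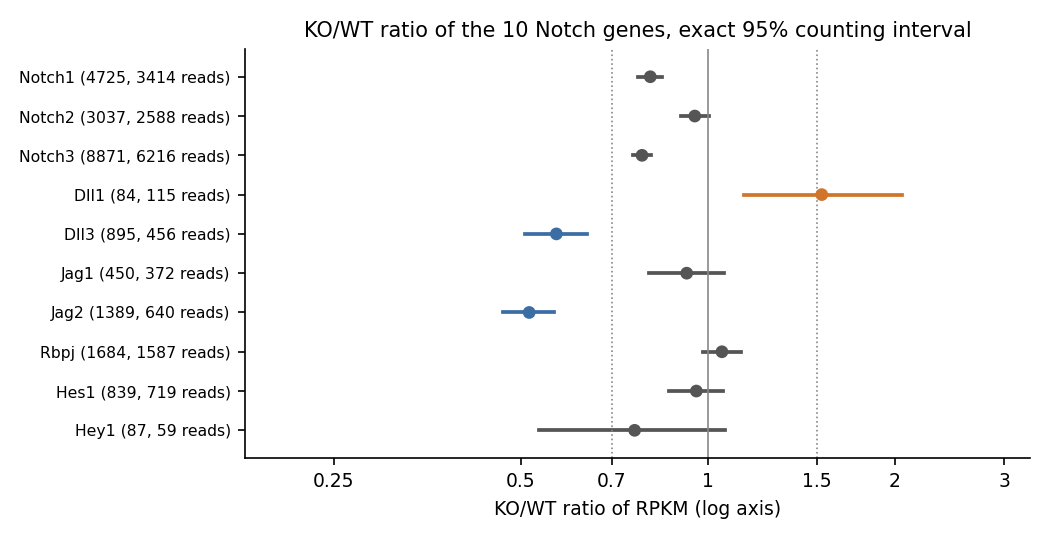
KO/WT ratio of RPKM (log axis) for the 10 Notch genes, with the exact 95% counting interval as a bar and the WT and KO read counts in parentheses. Blue marks the genes called lower (*Dll3* and *Jag2*), orange the gene called higher (*Dll1*), and dotted lines stand at the thresholds of 0.7 and 1.5.

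Among the receptors, *Notch3* was the most abundant transcript. It had 8871 reads (43.5 RPKM) in WT and 6216 reads (34.1 RPKM) in KO. The KO level was lower, with a ratio of 0.78 (0.76 to 0.81), and it did not reach the threshold. *Notch1*, the receptor that is required for somite formation and for T cell fate, had 4725 reads (14.4 RPKM) in WT and 3414 reads (11.6 RPKM) in KO, a ratio of 0.81 (0.77 to 0.84). *Notch2* had 3037 reads (15.9 RPKM) in WT and 2588 reads (15.1 RPKM) in KO, a ratio of 0.95 (0.90 to 1.00), and its interval included 1. *Notch1* and *Notch3* thus differed between the libraries by more than counting error, and *Notch2* did not.

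*Notch3* made up 57.6% of the RPKM summed over the 4 Notch receptors in WT and 52.3% in KO. The order of *Notch1* and *Notch2* depended on the gene length used: by RPKM *Notch2* was slightly above *Notch1* in both libraries, whereas by reads per kilobase of the longest annotated transcript *Notch1* was above *Notch2* (498 against 289 in WT). *Notch4*, the remaining receptor and one that is best known from endothelial cells, was the least abundant. It had 277 reads (1.68 RPKM) in WT and 644 reads (4.37 RPKM) in KO, a ratio of 2.59 (2.25 to 3.0). It was called higher, and its share of the summed receptor RPKM went from 2.23% to 6.69%. *Notch3* and *Notch4* lie on chromosome 17, as does *Pknox1*, at 513 kb and 2957 kb from it. The ligand gene *Dll1* lies on chromosome 17 too. The ratio of *Notch3* was below 1, and those of *Notch4* and *Dll1* were above 1. The median log2 ratio of chromosome 17 was -0.10. The spans of genes on the opposite strand overlap those of *Notch1* (0610009E02Rik and Gm13568), *Notch3* (Gm17276) and *Notch4* (Gm20462). The library kit does not keep the strand, so reads from any shared exon stretch could not be told apart by strand. Whether the exons of these pairs overlap was not examined.

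Within the set of 10, the ligands held the lowest and the highest ratio. *Jag2*, a Serrate-type ligand that activates receptors on neighboring cells, had 1389 reads (15.4 RPKM) in WT and 640 reads (7.95 RPKM) in KO. The ratio was 0.52 (0.47 to 0.57). *Dll3*, a Delta-like protein that does not activate receptors on neighboring cells but acts within the cell that makes it and is needed for somite segmentation, had 895 reads (9.18 RPKM) in WT and 456 reads (5.23 RPKM) in KO. Its ratio was 0.57 (0.51 to 0.64). These were the genes called lower, and their calls did not rest on few reads. *Jag1*, the other Serrate-type ligand, had 450 reads (3.41 RPKM) in WT and 372 reads (3.15 RPKM) in KO, a ratio of 0.92 (0.80 to 1.06), so that the Jagged genes differed from each other: their intervals did not overlap.

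*Dll1*, a ligand of presomitic mesoderm and of neural precursors, had only 84 reads (0.994 RPKM) in WT and 115 reads (1.52 RPKM) in KO. The ratio was 1.53 (1.15 to 2.05), just past the threshold of 1.5. The call ends when WT RPKM must exceed 1, as its WT level was just below, and when 0.1 is added to both RPKM values, which gives a ratio of 1.48. An antisense gene, A930024N18Rik, overlaps it. *Dll4*, the remaining ligand and a gene of the arterial endothelium, had 7 reads in WT and 5 in KO, which is too few to compare. Summed over the 4 ligands of the set, RPKM was 29.0 in WT and 17.9 in KO, a ratio of 0.62. The sum over the 3 receptors was 73.8 in WT and 60.9 in KO, a ratio of 0.82. Of the RPKM summed over all 5 ligands, *Dll4* included, *Jag2* made up 53.0% in WT and 44.4% in KO, and *Jag1* 11.7% and 17.6%. By annotated transcript length *Jag2* and *Dll3* were level in WT (343 and 342 reads per kilobase) and *Dll3* was slightly the higher in KO (175 against 158).

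*Rbpj*, the DNA-binding protein that the cut receptor turns from a repressor into an activator, had 1684 reads (22.2 RPKM) in WT and 1587 reads (23.4 RPKM) in KO, a ratio of 1.05 (0.98 to 1.13). *Hes1*, a basic helix-loop-helix repressor and the best studied direct Notch target, had 839 reads (20.6 RPKM) in WT and 719 reads (19.8 RPKM) in KO. Its ratio was 0.96 (0.87 to 1.06). For both genes the interval included 1. *Hey1*, a related repressor of the heart and vessels, had 87 reads (1.39 RPKM) in WT and 59 reads (1.06 RPKM) in KO. The ratio of 0.76 (0.54 to 1.07) was too imprecise to place it on either side of 0.7 or of 1.

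**Figure D3:**
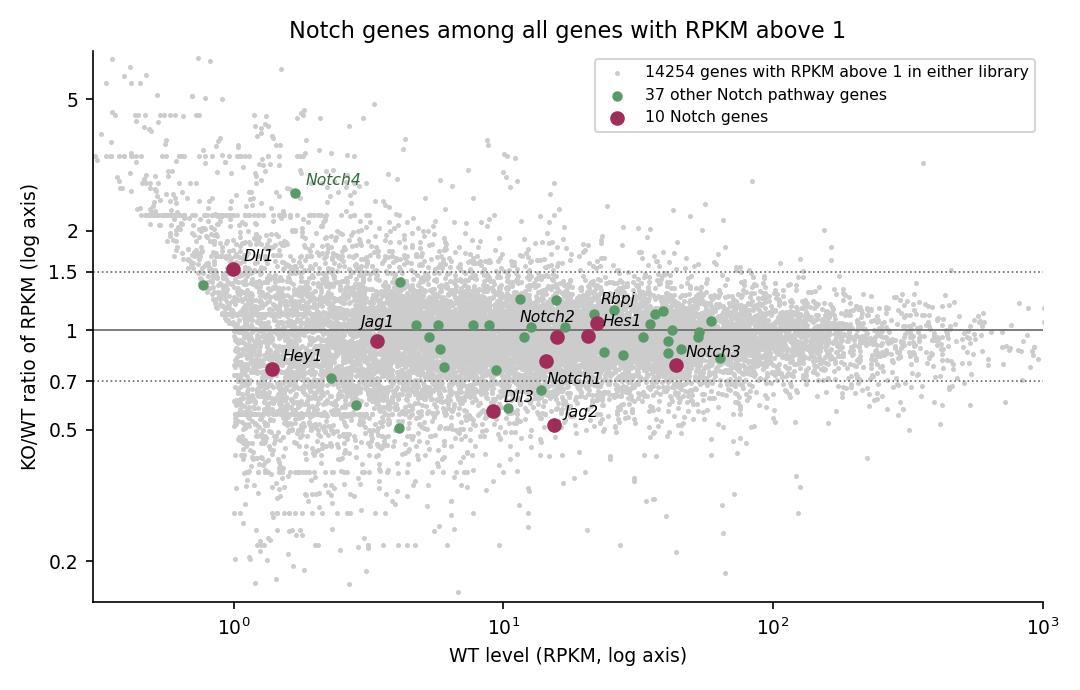
KO/WT ratio of RPKM against the WT level (both log axes) for all but 100 of the 14254 genes that reached RPKM 1 in WT or KO (gray; the 100 fall outside the axes), the other Notch pathway genes (green) and the 10 Notch genes (purple). *Jag2* and *Dll3* lie in the lower part of the gray cloud for their level, *Dll1* lies at RPKM 1 where the cloud is wide, and the other 7 lie between the dotted lines at 0.7 and 1.5.

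The other genes of the pathway were examined as a list of 48, of which 46 were found in the files and 37 had RPKM above 1 in either library. Of these 37, 4 were lower in KO (*Lfng*, *Nrarp*, *Numb* and *Aph1a*) and 1 was higher (*Notch4*). These counts make 10.8% and 2.70% of the 37 genes, below the shares among all genes. The median log2 ratio of the 36 pathway genes with RPKM above 1 in WT and in KO was -0.04, beside -0.07 for all such genes.

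*Lfng*, a glycosyltransferase that modifies the receptors and alters which ligands activate them, had 635 reads (10.4 RPKM) in WT and 330 reads (6.06 RPKM) in KO, a ratio of 0.58 (0.51 to 0.66). *Nrarp*, a Notch target whose ankyrin-repeat protein destabilizes the cut receptor, had 334 reads (4.09 RPKM) in WT and 150 reads (2.06 RPKM) in KO, a ratio of 0.50 (0.41 to 0.61). *Nrarp* was the only one of 7 target genes on the lists (with *Hes1*, *Hey1*, *Hes5*, *Hes7*, *Hey2* and *Heyl*) to be called, and the 4 others besides *Hes1* and *Hey1* did not reach RPKM 1. *Hey2* had 54 reads in WT and 32 in KO, and *Hes5*, *Hes7* and *Heyl* had at most 9 reads in either library.

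*Numb*, an endocytic adaptor that holds Notch down, had 1429 reads (13.8 RPKM) in WT and 840 reads (9.09 RPKM) in KO, a ratio of 0.66 (0.60 to 0.72). *Aph1a*, a gamma-secretase subunit, had 80 reads (2.85 RPKM) in WT and 42 reads (1.69 RPKM) in KO, a ratio of 0.59 (0.39 to 0.86), and the gene *Car14* overlaps it on the other strand. Among the pathway genes with the most WT reads, the corepressor gene *Spen* had a ratio of 1.12 (1.10 to 1.14) and the acetyltransferase gene *Ep300* a ratio of 0.99 (0.96 to 1.01).

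**Figure D4:**
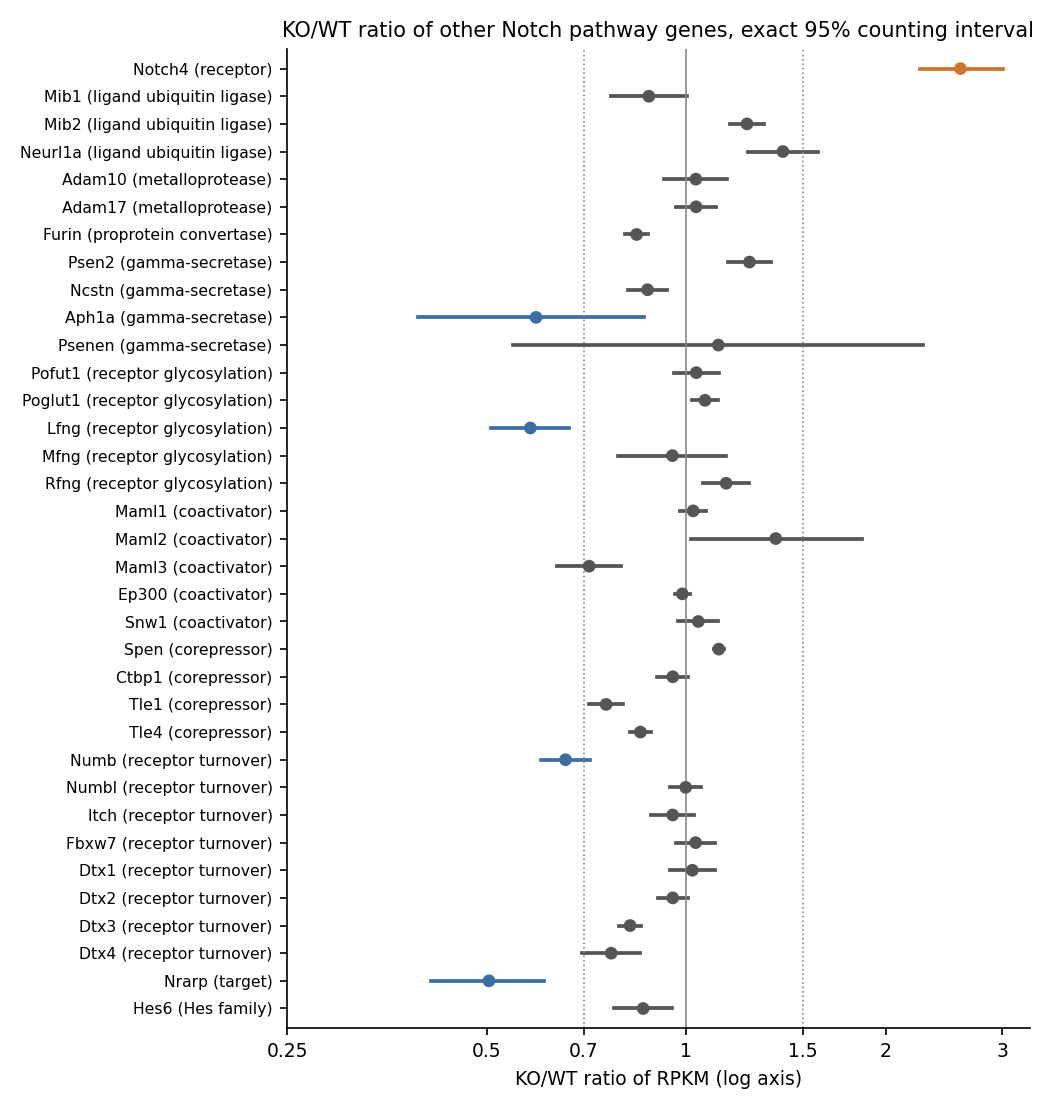
KO/WT ratio of RPKM (log axis) with exact 95% counting intervals for 35 of the 37 other Notch pathway genes with RPKM above 1 in either library, each with its role. Blue marks the 4 genes called lower (*Aph1a*, *Lfng*, *Numb* and *Nrarp*) and orange the 1 called higher (*Notch4*), and most of the rest cluster around a ratio of 1.

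Several of the Notch genes that differed are also genes of cell types that can arise in ES cell cultures, and marker lists for these were read beside them. Of 6 presomitic mesoderm and primitive streak markers, 4 had RPKM above 1 in either library and 3 of them were lower in KO (*T*, *Mixl1* and *Msgn1*), beside the 13.3% of all genes given above. *Tbx6*, the fourth, had 159 reads in WT and 143 in KO, a ratio of 1.01 (0.80 to 1.27). *T*, which encodes Brachyury, had 1091 reads in WT and 242 in KO. The summed RPKM of the list was 27.6 in WT and 8.86 in KO, of which *T* alone made up 20.5 and 5.09. *Msgn1* had 23 reads in WT and 0 in KO, where a count of 0 allows up to 3 reads, and *Ripply2* had 0 in both. *Dll3* and *Lfng*, which this tissue expresses strongly, were lower in KO as *T*, *Mixl1* and *Msgn1* were, whereas *Dll1* and *Tbx6* were not.

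The counts below stand beside 13.3% of all genes lower and 6.91% higher. Of 6 primitive endoderm markers, 3 of the 4 with RPKM above 1 were lower, with a summed RPKM of 10.6 in WT and 6.03 in KO. *Sox7*, the fourth, had a ratio of 1.39 (1.09 to 1.79). Of 6 trophoblast markers, 3 of 5 were lower (*Cdx2*, *Krt7* and *Hand1*), with sums of 106 and 66.4. Most of these sums came from *Krt7* (45.6 and 22.3 RPKM) and from *Tfap2c* (40.3 and 35.9), which was not called. *Cdx2* was at 2.89 and 0.64 RPKM. Neural progenitor markers gave 2 lower and 1 higher of 4, with sums of 26.3 and 19.6. Endothelial markers, examined because of *Notch4*, gave 1 lower (*Kdr*) and 1 higher (*Tek*) of 3, with sums of 26.5 and 36.5 that came mostly from *Pecam1*, which ES cells also express. The endothelial genes *Cdh5* and *Tie1* had at most 6 reads in either library. Fibroblast markers gave no call, with sums of 24.8 and 30.4. No marker other than *Msgn1* and *Ripply2* was at 0 reads in either library. Of 9 ES cell markers, 8 had a ratio above 1, and *Klf4* among them was called higher (1.58), while *Zfp42* was at 0.80. Of all genes with RPKM above 1 in WT and in KO, 58.8% had a ratio below 1. The part of these other cell types in the Notch gene ratios was not tested.

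The ChIP-seq list held 3902 Prep1 peaks, each with a fold enrichment over input (median 21, highest 336). A peak overlapped the window from -500 to +100 bp of the annotated gene start at 3 of the 10 Notch genes, *Jag2*, *Rbpj* and *Hey1*, against 10.5% of 13650 genes with RPKM above 1 in either library. When the start of any annotated transcript was counted, *Hes1* made 4, against 11.8%. Within 20 kb of the gene start or within the gene, the same 4 had a peak, against 26.1% of genes, and *Notch1*, *Notch2*, *Notch3*, *Dll1*, *Dll3* and *Jag1* had none. Of the 3 genes with a peak at the gene start, 1 was called lower in KO (*Jag2*) and none higher, and among all 1429 expressed genes with such a peak 15.8% were lower and 3.29% higher. *Dll3* was lower without a peak nearby.

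**Figure D5:**
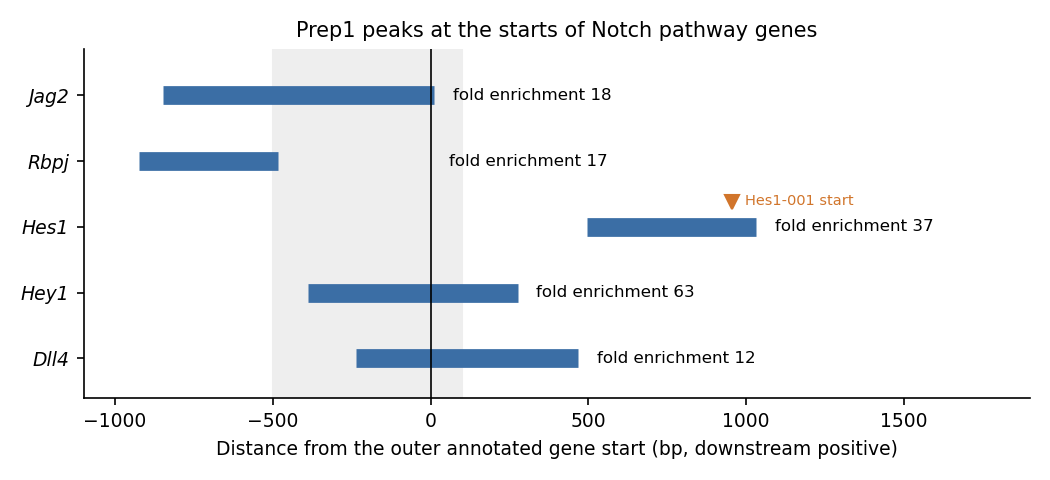
Prep1 peaks (blue bars, with their fold enrichment) at the starts of 4 Notch genes and *Dll4*, drawn by distance in bp from the outer annotated gene start, with downstream positive. The gray band is the window from -500 to +100 bp. The *Hes1* peak lies downstream of the outer start and covers the start of transcript Hes1-001 (triangle).

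*Hey1* had the strongest of these peaks, with a fold enrichment of 63 (higher than 77.6% of peaks), from -390 to +276 bp of the gene start. The *Hes1* peak had a fold enrichment of 37, and its center lay at -192 bp from the start of Hes1-001. The *Jag2* peak had a fold enrichment of 18 and ran from -849 to +10 bp. The *Rbpj* peak had a fold enrichment of 17 and ran from -925 to -482 bp of the outermost transcript, so that it only touched the window. A second peak, with a fold enrichment of 16, lay 4.82 kb past the end of *Rbpj*. The *Jag2* and both *Rbpj* peaks were thus below the median of all peaks.

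The peaks were searched on both strands for the decamer that the study gives as the consensus bound by Prep1 (DECA), in which the fourth base is free. The study prints several of the other bases in lower case, whereas here each of them counted as fixed. Its own motif search found the decamer in a larger share of peaks than the exact match here, so a mismatch here need not be one there. An exact match was found in 24.3% of all peaks and a match with at most 1 mismatch in 63.4%. The best matches at *Hes1* and *Hey1* had 2 mismatches, which 96.2% of all peaks reached. The sequences of the peaks at *Jag2*, the bound ligand gene with the lower KO level, and at *Rbpj* and *Dll4* are shown because their best matches had at most 1 mismatch. Each is from mm9, 5′ to 3′, with the match in capitals, and substitutions are counted from 1 at the 5′ end of the decamer.
*Jag2*, chr12:114167979-114168078, plus strand, intergenic: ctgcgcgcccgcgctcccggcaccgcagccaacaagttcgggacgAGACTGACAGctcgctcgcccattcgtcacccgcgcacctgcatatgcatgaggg
*Rbpj*, upstream, chr5:53946227-53946326, minus strand, intergenic: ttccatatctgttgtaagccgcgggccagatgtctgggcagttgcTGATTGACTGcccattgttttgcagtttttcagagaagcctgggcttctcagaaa
*Rbpj*, past the gene end, chr5:54053822-54053921, minus strand, intergenic: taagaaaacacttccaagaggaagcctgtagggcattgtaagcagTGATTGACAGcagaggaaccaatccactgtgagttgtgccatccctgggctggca
*Dll4*, chr2:119151444-119151519, plus strand, intron of Gm14207: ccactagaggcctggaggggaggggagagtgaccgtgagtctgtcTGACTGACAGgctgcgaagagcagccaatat

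The *Jag2* match carries T1A and lies at -327 to -318 bp from the gene start. The upstream *Rbpj* match carries A9T, and the match past the end of *Rbpj* is exact. Both substitutions fall on bases that the study prints in lower case. The match at *Dll4* is exact as well and lies at -31 to -22 bp from its start, in a peak with a fold enrichment of only 12, at a gene with 7 and 5 reads. A match shows that the letters are present and not which protein bound there, and the antibody can also recognize Prep2 weakly according to the methods.

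Rbpj itself binds the core TGGGAA, which reads TTCCCA on the other strand. In the RefSeq promoter table (250 bp before to 50 bp after the start) this core was present in 25.6% of 32851 promoters. Of the 10 Notch genes, 8 were matched (not *Hes1* and *Hey1*), and with *Notch4* and *Dll4* they had 12 promoters, of which the 2 of *Rbpj* held the core. The decamer was in 0.874% of all promoters and in that of *Dll4* among the 12.

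Of the other pathway genes, 7 of 46 had a Prep1 peak at the gene start (*Dll4*, *Psenen*, *Maml1*, *Tle1*, *Tle4*, *Numb* and *Dtx4*). The share was 7.6% of all 21446 annotated genes, with or without expression, and 10.5% of 13650 genes with RPKM above 1 in either library. Of the 46, 37 had RPKM above 1 in either library, and *Dll4* was not among them. The *Psenen* peak had its center at -405 bp from the start of *Psenen* and 288 bp from the start of *U2af1l4*. The highest fold enrichments among the 7 were 171 at *Numb* and 158 at the corepressor gene *Tle1*. *Numb* was the only one of the 7 to be called lower, and *Tle1* had a ratio of 0.76 (0.71 to 0.80). *Lfng*, *Nrarp* and *Aph1a*, the other genes called lower, had no peak within 20 kb of the start or in the gene.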

How the data were processed

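Per the labels and methods, polyA+ RNA of 1 WT and 1 *Prep1*-/- ES cell line was made into unstranded TruSeq libraries and sequenced as paired-end reads. The authors assigned reads with RSEM to Ensembl 63 genes (mm9) and used DESeq; versions are not given in the sources used here. They deposited a whole-number read count per gene, without normalization, and an RPKM value, which is proportional to the read count plus 1 (the KO/WT RPKM ratio is 1.12 times the ratio of read counts plus 1). RPKM was listed as Inf for 85 genes, which were left out. The deposited peaks were called by the authors with BWA and MACS against input (mm9), and their score is the fold enrichment rounded to a whole number.

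The KO/WT ratio was taken from the deposited RPKM values with no pseudocount. The ratio thresholds of 0.7 and 1.5 and the RPKM minimum of 1 are those of the study. The minimum was applied here to WT for lower calls and to KO for higher calls, whereas the study describes it for WT. Exact binomial 95% intervals were computed from the read counts with scipy 1.17.1 and multiplied by 1.12. The code for the calls and intervals was tested on simulated counts with counting error only, with planted changes well past the thresholds. That simulation does not cover ratios near the thresholds, called genes with few reads or variation between cultures. No test across replicates was possible, and no p-value is given. Gene positions came from GENCODE M1 (mm9), in which 21446 genes of the tables were found, and promoter sequences from RefSeq (table on GRCm38, of which no coordinate is used). Python 3.11.15, numpy 2.4.6, pandas 2.3.3, pysam 0.24.0 and matplotlib 3.10.9 were used.

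The genes named are the 10 Notch genes, *Notch4* and *Dll4*, the other pathway genes past a threshold, the 3 with the most WT reads, and *Pknox1*. Some genes of the lists are counted but not reported by name here. The other target genes, single markers and genes named for their peaks were added after their values were seen. The genes and lists were chosen with earlier results of these data known. Other scalings, pseudocounts, filters, thresholds and peak windows were tried as alternatives. The ChIP input was not analysed here.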

Additional observations from a re-analysis of the deposited data

How the results depend on the processing

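*Jag2* and *Dll3* were the genes called lower, *Dll1* the gene called higher, and *Lfng*, *Nrarp*, *Numb*, *Aph1a* and *Notch4* the other pathway genes called, under scaling by summed read counts, under setting the median ratio of all expressed genes or of each chromosome to 1, and without the added read. The call of *Dll1* ended (0 genes higher) with a pseudocount of 0.1 or 1 and with an RPKM filter of 2. Requiring WT RPKM above 1 also for higher calls, added after seeing the data, left 0 Notch genes higher and changed no other call. With thresholds of 0.5 and 2, 0 Notch genes were lower, 0 were higher and 0 other pathway genes were lower. With no RPKM filter, 2 other pathway genes were higher, *Notch4* and *Heyl* (5 and 9 reads), and 5 were lower, with *Hey2* (54 and 32 reads) added. Counting only peaks with a fold enrichment above the median left 1 gene with a peak at its start, *Hey1*. The median log2 ratio of the 10 genes lay between -0.21 and -0.12 under all scalings and pseudocounts. The median without *Dll1* was not recomputed under them. Of 90 alternative values of single ratios, 85 stayed within the counting interval, none crossed 1 for a called gene, and the 5 outside belong to *Notch1* and *Notch3* (up to 0.86 and 0.84) and *Notch4* (2.00 with a pseudocount of 1). No paired analysis was possible because each genotype has 1 library. The depth limits *Dll1*, *Hey1*, *Dll4* and *Aph1a*, each with under 200 reads in the libraries together. The transcript start and the length used for levels were chosen after seeing the data.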

Other observations

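Some strong Prep1 peaks lay close to Notch genes but closer to the start of another gene. The peak nearest *Notch1*, with a fold enrichment of 75, lay 11.9 kb past its end with its center 182 bp from the start of *Sec16a*. Past the end of *Notch4*, the gene with the highest ratio among the called pathway genes, peaks with fold enrichments of 186 and 216 lay at 14.6 kb and 16.6 kb, with centers 208 bp from the start of *Rnf5* and 1528 bp from that of *Agpat1*. These are stronger than 97.5% and 98.8% of all peaks. The introns of the coactivator gene *Maml3* held 3 peaks, with fold enrichments of 42, 11 and 135, and the strongest had an exact match to the decamer. *Maml3* had 815 reads in WT and 520 in KO, with a ratio of 0.71 (0.64 to 0.80), just short of the threshold. Which gene, if any, these peaks act on was not tested.

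Among the enzymes that start ligand endocytosis in the sending cell, *Mib2* and *Neurl1a* had ratios of 1.24 (1.16 to 1.31) and 1.40 (1.24 to 1.58), while *Mib1* was at 0.88 (0.77 to 1.00). None passed a threshold. *Maml2*, another coactivator, had 85 reads in WT and 104 in KO, a ratio of 1.37 (1.02 to 1.84). *Psenen*, a gamma-secretase subunit, is listed at 21.7 RPKM in WT on the strength of 18 reads, so its level depends on a very short length behind the deposited RPKM. *Aph1b* and *Aph1c* are near-identical copies with at most 24 reads, and their values are uncertain.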
